A study of Drosophila melanogaster with 2 samples.

Results

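The chemosensory genes of Drosophila melanogaster described here are the odorant receptors (Or), gustatory receptors (Gr), ionotropic receptors (Ir) and odorant-binding proteins (Obp). They were taken by symbol from the protein-coding genes of the Ensembl annotation: every name in which Or, Gr, Ir or Obp is followed directly by a digit, plus the odorant co-receptor Orco. This gave 231 of 13945 protein-coding genes, 60 Or, 60 Gr, 60 Ir and 51 Obp genes. The question was where Arrowhead (Awh), a LIM-homeodomain transcription factor, was found on chromatin around them. Awh was mapped by ChIP-seq, the sequencing of DNA recovered with a protein, in whole embryos collected at 0 to 24 h from the strain Awh-GFP. Per the labels the strain carries an insertion targeting Awh, its protein is fused to eGFP, and the pull-down used an antibody against GFP, although another label names Awh as the antibody. Both samples, biological replicates 1 and 2, belong to this single group, and no control sample was analysed here. The sources used here do not give the promoter that drives the fusion.

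Odorant receptors form ligand-gated channels together with Orco, and each is used by a small class of olfactory neurons. Gustatory receptors sense sugars, bitter compounds and carbon dioxide, and ionotropic receptors, relatives of glutamate receptors, sense acids, amines, humidity and salts with co-receptors such as Ir8a, Ir25a and Ir76b. Odorant-binding proteins are small secreted proteins of the fluid around sensory endings. Many of these genes stand in short tandem arrays, and they are known from larval and adult sense organs rather than from most cells of an embryo. In whole embryos, binding in few cells and weak binding in many cells cannot be told apart, and the peak lists hold no expression values by which the tissue could be checked.

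Of the 7 regions with the highest signal next to these genes 6 are shown first, since the results turn on them. Each sequence is the plus strand of the dm6 build, the summit with 50 bp on either side. Capitals mark TAATTA, which LIM-homeodomain factors are known to bind. They lie at chr3R:6105305-6105405 for Obp83cd, chr3R:29717117-29717217 for Obp99b, chr3L:6336698-6336798 for Or65c, chr3R:16497566-16497666 for Gr89a, chr3R:21828310-21828410 for Gr93a and chr3L:6316146-6316246 for Or65a.
Obp83cd: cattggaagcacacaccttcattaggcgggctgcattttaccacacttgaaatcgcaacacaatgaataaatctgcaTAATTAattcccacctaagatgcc
Obp99b: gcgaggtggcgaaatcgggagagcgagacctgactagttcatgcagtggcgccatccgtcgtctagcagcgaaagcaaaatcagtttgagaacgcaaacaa
Or65c: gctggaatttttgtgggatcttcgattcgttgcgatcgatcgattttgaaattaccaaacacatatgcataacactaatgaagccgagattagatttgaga
Gr89a: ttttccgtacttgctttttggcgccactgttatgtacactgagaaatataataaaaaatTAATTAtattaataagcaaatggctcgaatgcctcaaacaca
Gr93a: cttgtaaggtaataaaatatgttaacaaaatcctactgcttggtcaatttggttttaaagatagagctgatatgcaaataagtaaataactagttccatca
Or65a: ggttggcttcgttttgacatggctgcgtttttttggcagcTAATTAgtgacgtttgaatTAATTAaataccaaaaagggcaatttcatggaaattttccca
Of the 6 windows, that of Or65a holds the site at 2 places, those of Obp83cd and Gr89a hold it once, and those of Obp99b, Or65c and Gr93a do not hold it. The GC content ran from 28.7% at Gr93a to 53.5% at Obp99b.

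Few of the chemosensory genes had a bound region, and those regions stood away from the genes. A region is a peak, or a group of overlapping peaks, of the authors' strict (conservative) list, and a gene counts as having it when one of its transcript starts is the protein-coding start nearest to the summit. By this measure 20 of the 231 genes had a region, a share of 8.66% (95% Wilson interval 5.67 to 13%), while 20.5% of all protein-coding genes did. The count was 8 of 60 for Or (13.3%, interval 6.91 to 24.2%), 2 of 60 for Gr (3.33%, 0.919 to 11.4%), 3 of 60 for Ir (5%, 1.71 to 13.7%) and 7 of 51 for Obp (13.7%, 6.81 to 25.7%). The intervals of the families overlap each other, and those of Or and Obp reach above the share of all genes while those of Gr and Ir do not. These intervals treat neighbouring genes as independent, which genes of an array are not, and the families were not tested against each other. Of the 20 genes, 13 had 1 region, 5 had 2 regions and 2 had 3 regions, which makes 29 of the 4781 regions of the list.

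**Figure D1:**
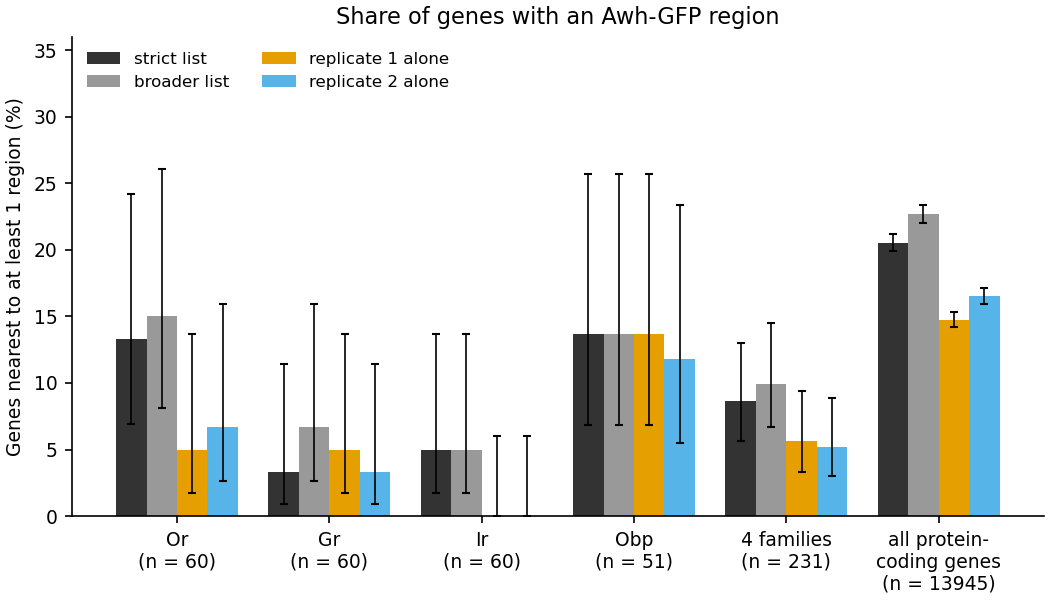
Share of genes (y axis, %) that were nearest to at least 1 region, for each family, the 4 families together and all protein-coding genes, in the strict list, the broader list and the list of each replicate alone. Bars are shares and error bars are 95% Wilson intervals. The 4 families together lie at 8.66% in the strict list, and all genes at 20.5%.

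The lower share was seen in every list. The broader (optimal) list gave 23 of the 231 genes (9.96%) against 22.7% of all genes. The list of replicate 1 alone gave 13 genes (5.63%) against 14.7%, and that of replicate 2 alone gave 12 (5.19%) against 16.5%. Obp genes numbered 7, 7, 7 and 6 in the strict, broader, replicate 1 and replicate 2 lists. With replicate 1 alone their share of 13.7% was near the 14.7% of all genes, and with replicate 2 alone it was 11.8% against 16.5%. The 7 of replicate 1 were not the same genes: Obp99d, in no other list, was among them and Obp56g was not. Ir genes were found only in the lists made from both replicates, 3 in each (Ir67c through another region in the broader list), and 0 of 60 appeared in either replicate's own list, which allows a share of up to 5%. Across the 4 lists 24 members had a region in at least 1, 9 had one in all 4, and 207 had none in any. Of the 9, Obp56h was counted in the replicate 1 list through another region, 9452 bp from its start.

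The counts were also set out by the length of each gene's territory, the stretch of DNA whose nearest start is its own. The median territory was 5249 bp for Or, 3132 bp for Gr, 5632 bp for Ir and 2260 bp for Obp genes, and 4250 bp for all genes. In the quartile of genes with the longest territories, 15 of 60 members (25%) had a region and so did 39% of all genes of that quartile. The median territory there was 17691 bp for members and 18093 bp for all. In the other quartiles together 5 of 171 members (2.92%) had a region, against 14.4% of all genes. Those 5 were Obp99b, Or49a, Gr89a, Or45b and Obp83cd. Per length of territory, members had 1.49 regions per 100 kb and all genes 3.57. Obp genes came nearest to that value with 2.95, followed by Or with 1.66, Gr with 1.21 and Ir with 0.515.

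**Figure D2:**
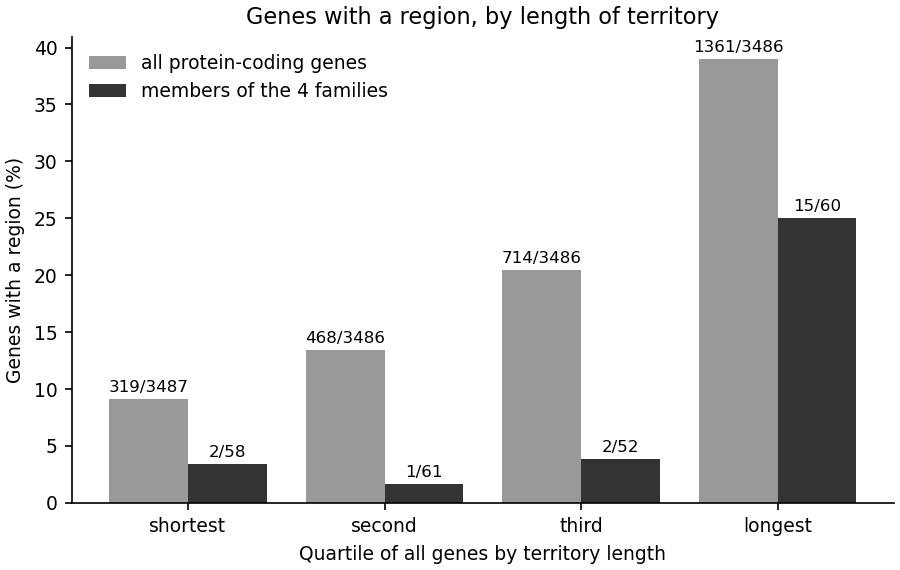
Share of genes with a region (y axis, %) in each quartile of all protein-coding genes ordered by territory length, for all genes (grey) and members of the 4 families (dark), with counts above the bars. In each quartile the bar of the members is lower, from 15 of 60 with the longest territories to 1 of 61 in the second.

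The regions lay outside the receptor and binding-protein genes. None of the 29 summits fell inside the member to which it was nearest (an upper limit of 10.3%), whereas 51.7% of all regions lay inside their nearest gene. No member had any summit of the list within its own gene body, 0 of 231 (up to 1.3%), against 12.5% of all genes, though members are shorter, with a median length of 1506 bp against 2166 bp. A promoter region, with its summit within 500 bp of the start, was present at 1 member, Obp99b, while 10.6% of all genes had one. Classes were taken from protein-coding genes alone. Of the 29 summits 21 (72.4%) were intergenic, 7 (24.1%) were in introns and 1 was at a promoter (3.45%). Over the whole list 21.7% were intergenic, 43.5% intronic and 32.1% at promoters. The median distance from summit to start was 5688 bp (quartiles 3424 and 9140 bp), against 1603 bp (248 and 5963 bp) for all regions, and 22 of the 29 lay upstream of the start. For 14 of the 29 the start of a noncoding RNA was nearer than that of the member, and 9 lay inside a gene of any kind, 7 of them inside a protein-coding one. The counts upstream, near noncoding starts and inside genes of any kind were not set beside a share of all regions. They are therefore not read as traits of the member regions.

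**Figure D3:**
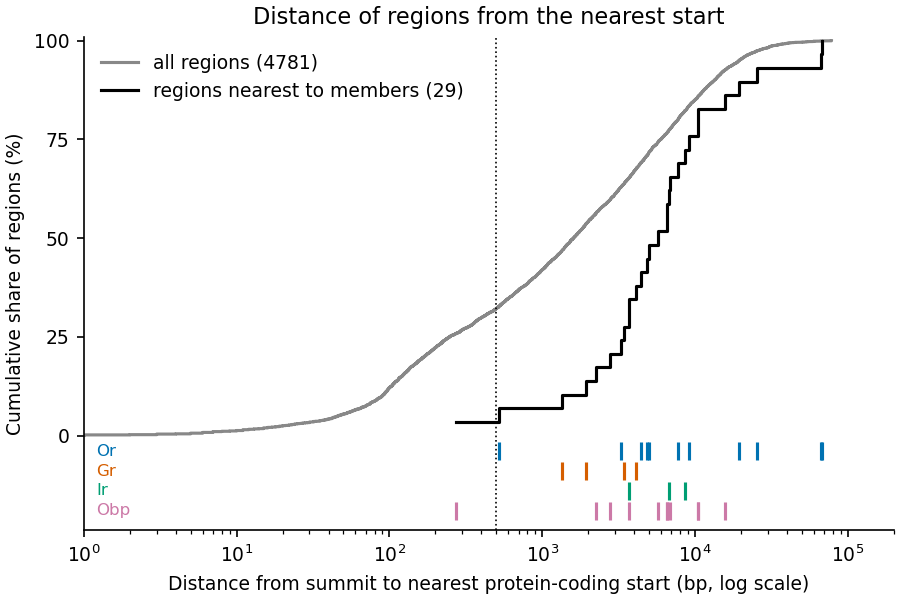
Cumulative share of regions (y axis, %) by distance from the summit to the nearest protein-coding start (x axis, bp, log scale), for all 4781 regions and the 29 nearest to members. Ticks under the curves mark each member region by family, and the dotted line marks 500 bp. A single member region, that of Obp99b, lies left of the line.

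The odorant-binding protein genes had the 3 highest signals among the 29 regions. The signal is the authors' peak caller's own value, used here only to rank peaks within a list, and the values of the replicates come from each replicate's own ranked list. Obp51a had the highest, 280 (rank 377 of 4781), at 2R:15028483-15028589, with 102 in replicate 1 and 179 in replicate 2. Obp83cd followed with 254 at 3R:6105302-6105383, with 118 and 138. Obp99b had 223 at 3R:29717104-29717212, with 124 and 100. All 3 were in both replicates' own lists. The median signal of the 29 regions was 90.5, from 66.4 to 280, and that of the whole list was 105, with quartiles of 81.4 and 155.

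Obp99b (3R:29716254-29716896, minus strand) had the promoter region of the set. Its summit lay 271 bp upstream of the start, and the next gene, CG15506, started 1496 bp from it. The distance was 271 bp with replicate 1 alone and 275 bp with replicate 2 alone. Obp83cd (3R:6108134-6109733, plus strand) had its summit 2779 bp upstream, in the gap to Gasp, which encodes a chitin-binding protein and starts 4468 bp away. The start of lncRNA:CR44929, a noncoding RNA, was nearer, at 492 bp.

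Obp51a (2R:15024375-15024839, minus strand) lies within hbs, the hibris gene of an immunoglobulin-domain adhesion protein known for myoblast fusion. Its 3 regions were all in an intron of hbs, 3703, 6604 and 10397 bp upstream of Obp51a. Their signals were 280, 90.7 and 77.5. The second, at 2R:15031278-15031607, had 45.0 and 44.1 in replicates 1 and 2, and the third, at 2R:15035071-15035400, had 46.8 and 45.1. Both of these were in the list of replicate 2 alone but not in that of replicate 1. They are the 3 regions that lie inside hbs, and they were 17146 to 23840 bp from its own start. The next protein-coding start after Obp51a was that of CG43101, 15020 bp from the strongest summit.

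Obp28a, an abundant antennal binding protein (2L:7496791-7497365, minus strand), had 2 regions, in introns of RapGAP1, a gene for a GTPase activator. RapGAP1 holds 10 regions of the list in its 81.2 kb. The first, at 2L:7512868-7513197, had a signal of 94.8, with 69.6 in replicate 1 and 29.8 in replicate 2, and lay 15668 bp upstream of Obp28a. The other, at 2L:7503764-7504093, had 66.4, with 34.5 and 35.3, and lay 6564 bp upstream. A strict-list summit closer to the start of Obp28a, 1124 bp away, was nearer to the start of another gene. In the list of replicate 1 alone a region also stood 244 bp from the start of Obp28a, where the strongest candidate peak within 500 bp had 62.1 in replicate 1 and 27.6 in replicate 2. It was absent from the list of replicate 2 and from both joint lists.

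Obp56g, Obp56h and Obp56i on 2R form a loose row with other genes between them. Obp56a to Obp56f stand closer together, at 2R:19697723-19713976, and none of them had a region. Obp56i (2R:19864717-19868714, plus strand) had a region at 2R:19857689-19858018, 6863 bp upstream, with a signal of 124 (66.9 in replicate 1, 59.9 in replicate 2). Its other region, at 2R:19858864-19859193, lay 5688 bp upstream with 76.4 (38.9 and 45.3). The next gene, CG44569, started 14186 bp from the first summit. Obp56g had 1 region of 106 (47.5 and 52.3) at 2R:19794278-19794607, 10400 bp upstream and 21111 bp from Obp56h. Obp56h had 1 of 88.0 (42.1 and 55.7), 2258 bp upstream. The strongest region in this row belonged to no member: it stood beside Toll-7, a Toll-family receptor gene, with a signal of 629.

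**Figure D4:**
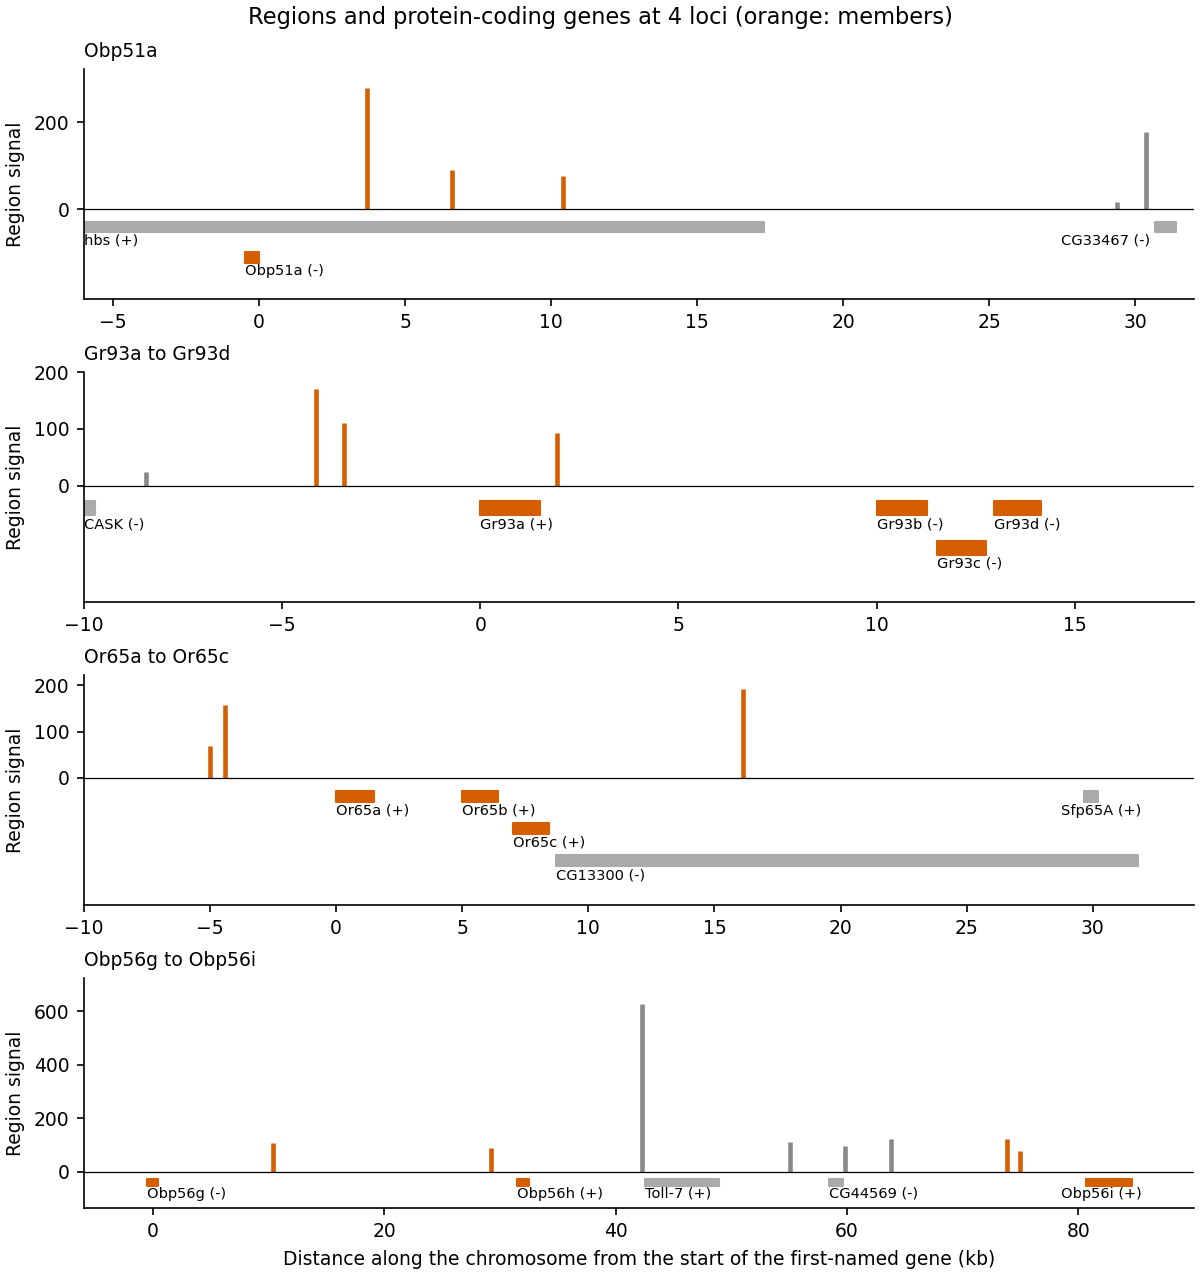
Regions and protein-coding genes at 4 loci, drawn to scale along the chromosome (x axis, kb from the start of the first-named gene). Vertical lines give each region's signal in the strict list (y axis), boxes are genes with their strand, and orange marks members and the regions nearest to them. No orange line stands over an orange box, and the line beside Toll-7 reaches 629.

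Among odorant receptors the regions with the highest signals were those of the Or65 array and Or67d. Or65a, known to respond to the male pheromone cis-vaccenyl acetate (3L:6320611-6322098, plus strand), had a region at 3L:6316031-6316360, 4415 bp upstream, with a signal of 157, with 61.0 in replicate 1 and 103 in replicate 2. A second, at 3L:6315434-6315763 and 5012 bp upstream, had 69.3, with 34.9 and 35.3. Or65c (3L:6327608-6329069, plus strand) had 1 region of 193, with 71.7 and 108, at 3L:6336583-6336912, 9140 bp downstream of its start and inside an intron of CG13300. Or65b, between them, had none. Or67d, the main receptor for cis-vaccenyl acetate (3L:10273204-10274624, plus strand), had a region at 3L:10339554-10339883, 66515 bp downstream, with a signal of 152 (65.1 in replicate 1, 79.1 in replicate 2). Another, at 3L:10340881-10341210, lay 67842 bp downstream with 71.0 (35.2 and 44.5). These lay within lncRNA:CR46006, which holds 7 regions and starts 16218 bp from the nearer of both summits. After Or67d the next protein-coding start from that summit was that of can, at 72608 bp.

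The other odorant receptor regions had signals from 71.7 to 90.5. Or49a, which detects odours of parasitoid wasps, had 1 region of 90.5 (49.4 in replicate 1, 31.0 in replicate 2) at 2R:12392795-12393124, 523 bp upstream and so just outside the promoter limit. The next start, of the cuticle protein gene Cpr49Ad, was 1261 bp away. Or45b had a region of 76.9 (31.2 and 39.0) at 2R:9556170-9556499, 3263 bp upstream and 5303 bp from Alp6. Its other region, of 71.7 (48.6 and 46.0), was at 2R:9554593-9554922, 4840 bp upstream and 6623 bp from CG1888. Or67c, Or98a and Or98b had 1 region each, with signals of 82.0, 77.8 and 82.2 at 7748, 19543 and 25571 bp, and that of Or98a was in an intron of CG34353. Of the 11 Or regions 2 were in both replicates' own lists and 7 in neither.

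Gustatory receptor regions stood at Gr93a and Gr89a alone in the strict list. Gr93a, required for the taste of caffeine (3R:21832503-21834013, plus strand), had 3 regions. The strongest, at 3R:21828195-21828524 and 4143 bp upstream, had a signal of 170 (77.1 in replicate 1, 81.5 in replicate 2). The next, at 3R:21828914-21829243 and 3424 bp upstream, had 110 (49.8 and 54.9). The third, at 3R:21834274-21834603, lay 1936 bp downstream of the start, beyond the end of the gene, with 92.9 (42.1 and 49.4). The upstream pair lies towards CASK, a gene for a membrane-associated guanylate kinase, which starts 5686 bp from the first summit. Gr93b, Gr93c and Gr93d, the rest of the array, had none in this list, while the broader list added Gr93b (58.6) and Gr93d (93.1). Gr89a (3R:16497817-16498959, minus strand) had 1 region of 173 (106 and 71.2) at 3R:16497451-16497780, 1343 bp downstream of its start and just past its end. The cadherin gene Cad89D starts 2194 bp from it.

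Ionotropic receptor regions had the lowest median signal of the 4 families, 77.4, against 82 for Or, 94.8 for Obp and 140 for Gr. Ir68a, known for the sensing of moist air, had 1 of 80.0 (37.5 in replicate 1, 47.5 in replicate 2), 6741 bp upstream and 9348 bp from scyl, a stress-response gene with 6 regions of its own. The neighbours Ir67b and Ir67c had 77.4 (38.0 and 39.9) and 77.1 (43.1 and 37.1), at 3726 and 8596 bp. None of the 3 was in either replicate's own list, and all were below the median signal of the list.

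All 29 regions had a candidate peak in both ranked lists, with a median of 47.5 in each replicate, against 52.5 and 53.1 over all regions. On the log2 scale replicate 1 differed from replicate 2 by -0.14 in the median (SD 0.44, 29 regions), and by 0.02 (SD 0.49) over 4741 regions of the list. The difference ran from -0.80 at the strongest Obp51a region to 1.23 at the first Obp28a region. Of the 29 regions 8 were in both replicates' own lists (27.6%, against 43.3% of all regions), 2 in that of replicate 1, 8 in that of replicate 2 and 11 in neither (37.9%, against 26.8%). The 8 supported by both were those of Obp51a (the strongest), Obp83cd, Obp99b, Or65c, Gr89a, Gr93a (the strongest), Or67d (the stronger) and Obp56i (the stronger), which are 8 of the 9 with the highest signals. The exception is the stronger Or65a region, in the list of replicate 2 alone. The regions of Ir67c and the weaker one of Or65a were not in the broader list.

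**Figure D5:**
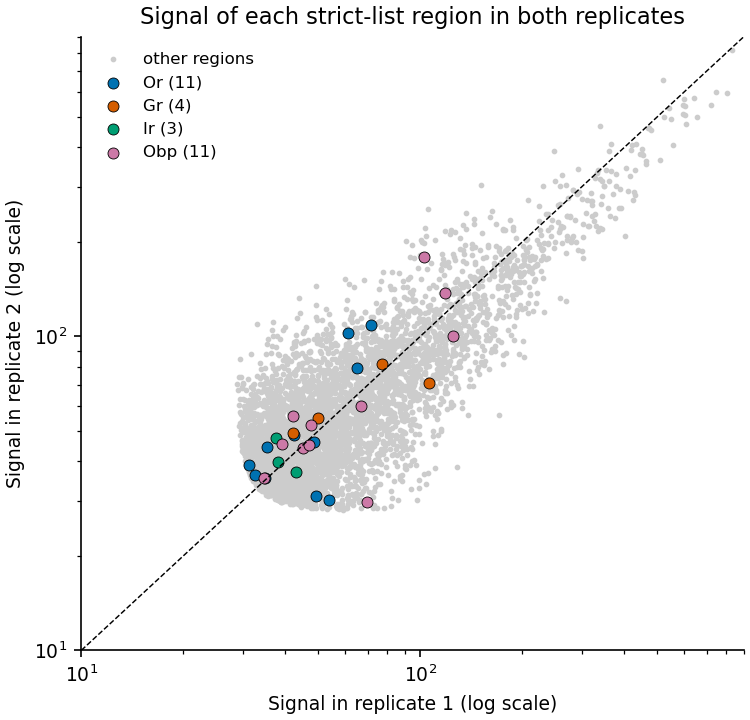
Signal of each strict-list region in replicate 1 (x axis) and replicate 2 (y axis), both on log scales, with the dashed line at equal signal. Grey points are other regions and coloured points the 29 nearest to members, by family. The coloured points lie within the grey cloud, 18 of them below the list's median signal.

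TAATTA lay more often at these summits than at all summits of the list, by count and without a test. It lay within 100 bp of 13 of 29 summits (44.8%, Wilson interval 28.4 to 62.5%), against 19.7% of all regions (18.6 to 20.9%). The site reads the same on both strands. Restricted to intergenic summits it was 11 of 21 (52.4%) against 22.2%, and within 50 bp it was 12 of 29 (41.4%) against 13.7%. The site was at 6 of 11 Or regions, 5 of 11 Obp regions, 2 of 4 Gr regions and 0 of 3 Ir regions. In 8 of the 13 its nearest base was within 15 bp of the summit, and the weaker Or65a region holds 3 copies, of which 1 covers the summit. The count within 15 bp was not set beside a share of all regions and is not read as a trait of the member regions. The 13 include 2 regions each of Or65a and Obp51a. The GC content around the summits had a median of 38.3% for the 29 regions together and 38.8% for all. By family the median differed, with 32.8% for Gr, 38.3% for Or, 40.8% for Obp and 43.3% for Ir. With the broader list the site lay at 13 of 36 summits (36.1%, interval 22.5 to 52.4%), against 19.4% of all regions. With 1 start per gene it lay at 13 of 39 (33.3%). With the list of replicate 2 alone it was 8 of 18 (44.4%, interval 24.6 to 66.3%) against 20.1%, and with that of replicate 1 alone 4 of 15 (26.7%, 10.9 to 52%) against 20%, an interval that holds the share of all regions. The match is a description of the letters and does not show which protein was there, and no test was made. GAGAG, the site of GAGA factor, lay at 7 of 29 summits (24.1%, against 26.4%). The hexamer ACAGTG lay at 4 (13.8%, against 16.1%), and TATCGATA, the site of DREF, at 0 (up to 10.3%, against 1.72%), each counted on both strands within 100 bp.

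The starts of most members lay far from any region. The median distance from a member's nearest start to the closest summit of the list, whichever gene it was assigned to, was 20093 bp, against 8663 bp for all genes. It was 26705 bp for Or, 13840 bp for Gr, 20424 bp for Ir and 13766 bp for Obp genes. Within 1000 bp there were 5 members (2.16%, against 16.9% of all genes), of which Obp99b and Or49a are described above. At the other 3, named after their values were seen, the summit was nearer to a neighbour. Or88a lay 692 bp from a region of 235 (121 in replicate 1, 108 in replicate 2) at the promoter of CG12402. Gr32a, a receptor for bitter compounds and pheromones, lay 815 bp from one of 82.0 (55.4 and 38.3) at the promoter of Idua. Gr64a, a sugar receptor, lay 856 bp from one of 84.5 (40.7 and 53.7) at that of CG11594.

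The co-receptors, which many of these neurons need, had no region. The same was true of 211 of the 231 members, so this does not set the co-receptors apart. Orco (3R:5407183-5412406) had candidate peaks within 500 bp of a start with signals of 17.4 and 17.7 in replicates 1 and 2, at the 52.4th and 53.9th percentile of all genes, and lay 38680 bp from the closest summit. These percentiles count genes without a candidate as lower. Among genes with a candidate the median was 21.4 in replicate 1 and 22.4 in replicate 2, above the values of Orco. Ir25a had 17.3 and 10.8, Ir76b had 10.2 and 19.7, and Ir8a had no candidate in replicate 1 and 25.6 in replicate 2. Ir25a lay 2561 bp from a strong region of 731 (428 and 289), which stands 138 bp from the start of tank. A candidate within 500 bp in both replicates was present at 79 of 231 members (34.2%), against 58.3% of all genes. By family it was 16 Or (26.7%), 18 Gr (30%), 18 Ir (30%) and 27 Obp genes (52.9%), so Obp genes were near the share of all genes. Members without a region were ranked within each family by the lower of their candidate signals in the 2 replicates, and in a single replicate some others were higher. The first by this measure were Or88a (27.4 in replicate 1, 24.5 in replicate 2), Gr32a (30.2 and 35.5), Ir60e (25.2 and 50) and Obp99a (32 and 24.9).

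Neighbouring genes of other kinds were set beside the families. Of the 304 genes that start next to a member and belong to none of the families, 59 had a region (19.4%, interval 15.4 to 24.2%), against 20.5% of all genes, and 28 had one at the promoter (9.21%). Their median territory was 6604 bp. Members next to another member of their own family, 98 in all, had a region in 8 cases (8.16%) and the 133 others in 12 (9.02%). The median territory was 2812 bp for the former and 5648 bp for the latter, so these shares are not on like terms. Of the 29 regions 26 lay between a member and a gene of another kind and 3 between starts of members, which are 1.53 and 1.19 regions per 100 kb of the members' territory. By chromosome arm the genes with a region were 1 of 33 on 2L, 6 of 75 on 2R, 7 of 37 on 3L and 6 of 55 on 3R, where 20.2, 19.8, 22.8 and 20.3% of all genes of the arm had one. On X it was 0 of 31 (up to 9.68%), where 19.8% of all genes had one.

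Other genes of chemosensation were listed by name. Of 16 genes for accessory proteins and channels, among them lush, Snmp1, Snmp2 and ppk23, 3 had a region, a share near the 20.5% of all genes. They were norpA, a phospholipase C, with 569 (269 in replicate 1, 303 in replicate 2), CheA29a with 120 (55.5 and 56.2), and Galphaq, a G protein subunit, with 67.6 (36.3 and 40.9). Of 24 transcription factors known for chemosensory neurons or appendages 8 had regions, 16 in all. Their median territory was 19914 bp, and 39% of all genes in the quartile with the longest territories had a region, so the count does not set these factors apart. Those with a promoter region were Xbp1 (178), zf30C (125), Dll (199) and Poxn, whose 3 regions had signals of up to 155, and en had 5 regions. The POU-domain factors acj6 and pdm3, which select odorant receptors in their neurons, had none.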

How the data were processed

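The authors deposited peak lists on dm6, per the labels and the descriptions that came with the files. No label or file header used here names the aligner or the peak caller. The deposited signal per peak has no stated scaling. The deposited score is a whole number up to 1000, a function of the irreproducible discovery rate, and was at least 830 in the strict list. The strict list held 5026 peaks, of which 5024 lay on the 6 chromosome arms used, and overlapping peaks (1 bp or more) were merged to 4781 regions with the strongest summit. The lists of replicates 1 and 2 gave 2895 and 3560 regions and the broader list 5529. Read depth is unknown. Awh itself had 14 regions. Because the insertion of the strain targets Awh and no control was analysed, this count cannot serve as a check of the assay.

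Genes and transcript starts came from Ensembl release 115, and sequence came from the RefSeq copy of Release 6, the assembly behind dm6. A summit was given to the gene of the nearest protein-coding transcript start, to all such genes in 81 ties, none of which involved a member. Territories of a start shared by genes (9 members) were divided between them. Classes were promoter (500 bp), 5' UTR, coding exon, 3' UTR, intron and intergenic, in this order, from protein-coding genes alone. Wilson intervals (95%) and upper limits for a count of 0 (3 counts) cover counting error only. Python 3.11.15, pandas 2.3.3 and SciPy 1.17.1 were used. The assignment was tested on simulated data.

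With 1 group of 2 replicates and no control, no test between groups was made. The members and lists were chosen with earlier results of these data known. Every member with a region is named, with full values for the 12 strongest regions, members with 2 or more regions and promoter regions. Sequences are shown for the 6 strongest regions outside one arm. Alternatives were the broader list, the list of either replicate, unmerged peaks, 1 start per gene, a limit of 5 kb, the 50% of regions with the higher signal, other windows and a stricter overlap.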

Additional observations from a re-analysis of the deposited data

How the results depend on the processing

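Of 72 values recomputed under alternatives, 45 stayed within 1.5 times of the reported count, or within the spread between replicates for the median signal, and 27 did not. In the stronger 50% of regions 10 members (3 Or, 2 Gr, 0 Ir and 5 Obp) had 11 regions, with a median signal of 170 and TAATTA at 6, beside 12.7% of all genes. With summits limited to 5 kb from a start 10 members (3 Or, 2 Gr, 1 Ir and 4 Obp) had 13 regions, with a median signal of 110 and TAATTA at 8, beside 17.9% of all genes. The broader list gave 4 Gr genes in place of 2, and 1 start per gene gave 5 Ir genes in place of 3. Leaving out either replicate gave 12 to 13 members, 3 to 4 Or, 2 to 3 Gr, 0 Ir (0 to 0) and 6 to 7 Obp genes, 15 to 18 regions, 1 to 2 at promoters, TAATTA at 4 to 8 and 14.7 to 16.5% of all genes. The second promoter region was that of Obp28a, in replicate 1 alone. Unmerged peaks gave 20 members with 29 regions, and an overlap of 50% left 8 regions in both replicates' lists. The causes of these shifts were not tested, except that smaller lists and a distance limit hold fewer regions by construction. In each of these settings the share of members with a region was below that of all genes. No paired analysis was possible because the series has a single group. Unknown read depth limits what can be said of members without a region. Weaker candidate peaks were recorded at some of them, but these were below the threshold of the list and do not settle whether binding was present.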
